A study of Mus musculus with 16 samples.

Results

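The genes described here are Tet1, Tet2, Tet3, Tdg and Kdm2b, 5 genes of the machinery that removes DNA methylation or keeps it away from CpG islands, and the measurement is the methylation of their own DNA in mouse embryonic stem cells (mESCs) and embryoid bodies (EBs). A CpG was taken as a member when it lay within 2 kb of an annotated transcription start of one of these genes (promoter) or elsewhere inside the gene (body), in the mm9 genome. This gave 725 CpGs, 476 in promoters and 249 in bodies, of 1320646 CpGs with a value in the series. Kdm2b (chr5:123320677-123465089) held 335 of them, Tet3 (chr6:83312367-83391672) 137, Tet1 (chr10:62267318-62361866) 124, Tet2 (chr3:133126643-133207354) 93 and Tdg (chr10:82092573-82113544) 36. Tdg lies on the plus strand and the other genes on the minus strand. Of the 725 CpGs, 186 were read in all 16 libraries. The rule takes in every annotated start, 6 in Tet1 and 22 in Kdm2b, so that much of what is called promoter below lies inside these genes.

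TET proteins are dioxygenases that oxidise 5-methylcytosine to 5-hydroxymethylcytosine and then to 5-formylcytosine and 5-carboxylcytosine. TDG is the glycosylase that cuts out the formylated and carboxylated bases, and base excision repair then puts back an unmodified cytosine. KDM2B binds unmethylated CpG islands through a CXXC zinc finger and recruits a Polycomb repressive complex to them. Bisulfite treatment does not separate 5-methylcytosine from 5-hydroxymethylcytosine, and both count as methylation here.

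Reduced representation bisulfite sequencing (RRBS) was performed on 2 replicates of each of 8 conditions, all of E14 cells (129/Ola strain) kept in serum and LIF unless stated. YP-mESCs were wild-type cells at a young passage (14 in the labels), and OP-mESCs were wild-type cells after prolonged culture. OP-S33Y #1 and OP-S33Y #2 came from young-passage cells made to overexpress S33Y β-catenin, a stable mutant, and were then kept for many passages, and each is a single clone. The mESC shCtrl and mESC shβcat #1 cells were made, by the study's text, from young-passage cells. They carried a control hairpin or 1 hairpin construct against β-catenin. EB shCtrl and EB shβcat #1 were EBs made from such cells without LIF and collected at day 8 by the study's methods. The labels do not say that replicates were separate cultures, so p-values of promoters and bodies measure only the spread between these samples, which may be technical. The p-values of single CpGs rest on reads summed over replicates and a spread shared by all CpGs. A CpG's own difference between replicates does not enter them.

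Reads on CpGs numbered 18919219 to 40519010 per library. The fewest CpGs (413282) were covered in OP-mESC replicate 2, which gave no Tdg value. YP-mESC replicate 2 held 0 CpGs on chr13, where the other libraries held 16036 to 44991. Shares over all features in comparisons with both YP-mESC replicates therefore lack chr13, on which no member lies. The promoter of Pou5f1, a pluripotency gene, was at 0 to 2.19% in the 12 mESC libraries and at 8.58 to 16.7% in the 4 EB libraries, and that of Zfp42, another pluripotency gene, was at 0 to 9.33% and 23.4 to 44.8%. No Nanog promoter CpG was read.

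The sequences that carry the results are given first, as the mm9 sense strand of each gene, 5′ to 3′, with CpGs read in at least 12 of the 16 libraries in capitals. The first is an example of a start that was low in every condition, the 250 bases before the RefSeq start of Tet3 (chr6:83391673-83391922, minus strand), with condition means of 0.0861 to 2.30%. The rest are intragenic stretches that differed between conditions, all on the minus strand. They are 3 stretches of Tet1 (chr10:62342549-62342638 and chr10:62295677-62295720 in coding exons, chr10:62328999-62329067 in an intron), 1 of a Tet2 coding exon (chr3:133149143-133149271), 1 of Tet3 (chr6:83318039-83318138) and 2 of Kdm2b (chr5:123330325-123330403 and chr5:123332415-123332584).
Tet3, before the RefSeq start: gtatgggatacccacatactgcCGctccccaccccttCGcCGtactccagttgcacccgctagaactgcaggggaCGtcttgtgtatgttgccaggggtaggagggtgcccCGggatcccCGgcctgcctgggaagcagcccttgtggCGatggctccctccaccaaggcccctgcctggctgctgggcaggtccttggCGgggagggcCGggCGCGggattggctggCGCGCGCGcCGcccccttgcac
Tet1, coding exon from 62342549: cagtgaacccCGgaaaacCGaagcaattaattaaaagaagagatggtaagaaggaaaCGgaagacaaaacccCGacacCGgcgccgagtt
Tet1, intron from 62328999: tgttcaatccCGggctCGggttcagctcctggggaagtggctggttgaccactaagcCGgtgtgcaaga
Tet1, coding exon from 62295677: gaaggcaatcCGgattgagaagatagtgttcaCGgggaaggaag
Tet2, coding exon from 133149143: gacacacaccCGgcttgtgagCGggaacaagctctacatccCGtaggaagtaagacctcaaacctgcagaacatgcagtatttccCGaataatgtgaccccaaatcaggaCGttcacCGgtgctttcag
Tet3, from 83318039: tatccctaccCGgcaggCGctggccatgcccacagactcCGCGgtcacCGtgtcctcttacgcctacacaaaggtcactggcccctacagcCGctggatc
Kdm2b, from 123330325: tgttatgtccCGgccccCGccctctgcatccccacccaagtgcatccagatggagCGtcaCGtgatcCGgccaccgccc
Kdm2b, from 123332415: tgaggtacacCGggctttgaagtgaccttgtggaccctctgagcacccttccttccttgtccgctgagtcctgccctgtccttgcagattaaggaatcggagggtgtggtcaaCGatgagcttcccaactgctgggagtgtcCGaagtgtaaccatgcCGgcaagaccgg
The Tet3 start holds 16 CpGs in capitals in 250 bases, and the 3 Tet1 stretches hold 5, 3 and 2 in 90, 69 and 44 bases. Counting CpGs not in capitals too, the numbers are 17 for the Tet3 start and 7, 3 and 2 for the Tet1 stretches.

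The mean level at the RefSeq starts of all 5 genes was at or below 5.12% in every library with a value. RefSeq promoters (250 bases before to 50 after a start) were placed by exact match in mm9, and a library was given a value with at least 2 CpGs. At the Tet1 start (chr10:62350023-62350322), 9 CpGs gave 53 values over the libraries and all 53 were 0, which over their 885 reads allows a level of up to 0.339% (3 counts, for counting error only). The Tet2 start (chr3:133207305-133207604) was at 0 to 3.90% in 15 libraries, and of its 568 single values 498 were 0 and 31 above 10%, up to 83.3%. The Tet3 start (chr6:83391623-83391922) was at 0 to 2.60% in 16 libraries. These TET starts stayed at or below 3.90% in every library with a value. The Tdg start (chr10:82092333-82092632) was at 0 to 2.31% in 15 libraries. Kdm2b was at 0 to 0.975% at its upstream start (chr5:123439059-123439358) and at 0 to 5.12% at its internal start (chr5:123350310-123350609), which makes the shorter transcripts. A further Kdm2b start (chr5:123438467-123438766) held no measured CpG.

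Most dense stretches at the starts were low, and most stretches away from them were methylated. The members' DNA was cut into 1 kb stretches, and those with a value in at least 15 libraries were grouped by the CpGs in their sequence. Of 11 stretches with at least 40 CpGs, 9 were below 15% in every library, and these lay at or within 1 kb of a RefSeq or GENCODE start. The other 2, at chr5:123330001-123331000 in Kdm2b and chr6:83318001-83319000 in Tet3, lie far from a RefSeq start. The Kdm2b stretch nevertheless lies within 1 kb of a GENCODE start. Their condition means were 23.1 to 88.7% and 38.0 to 90.5%. The parts of CpG number and of position at a start were not tested. Of 11 stretches with 20 to 40 CpGs, 1 was below 15% in every library, and of 12 with fewer than 20 CpGs, 0 were. The median of the condition means was 1.06% in the densest class, 84.5% in the middle class and 66.9% in the sparsest, so that the level did not fall steadily with CpG number. The median range over the 8 conditions was 3.42, 16.8 and 35.8 points in the same order.

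**Figure D1:**
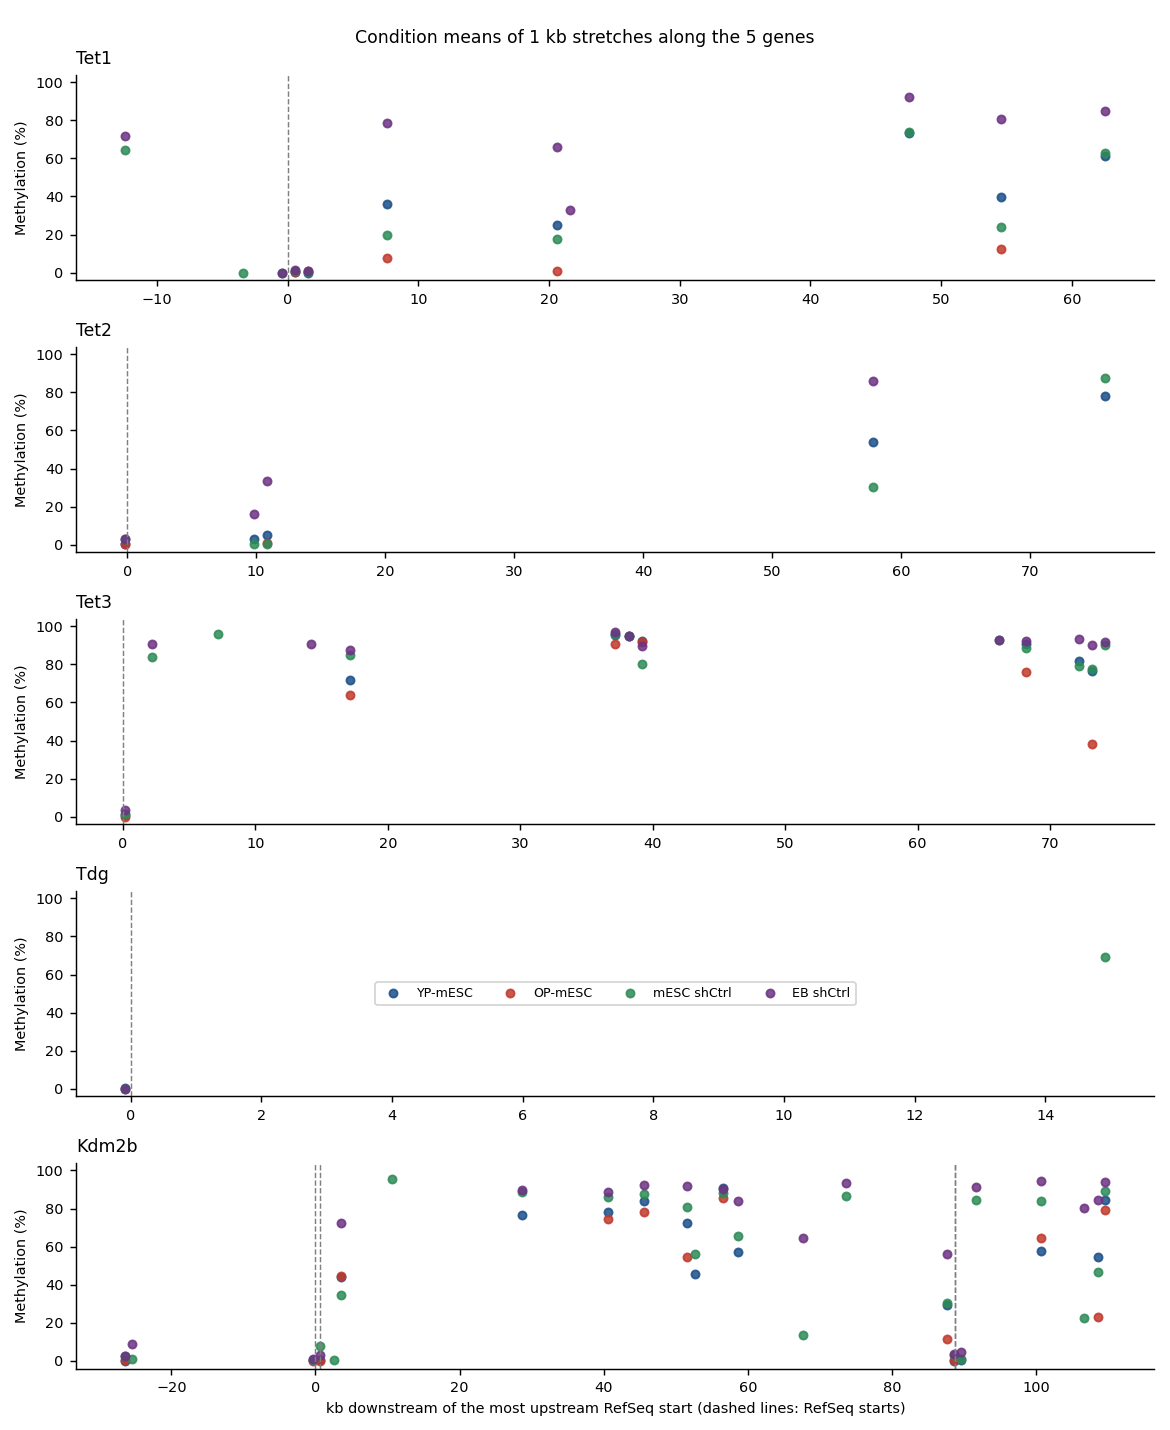
Methylation (%, y axis) of 1 kb stretches against the distance downstream of the most upstream RefSeq start (kb, x axis), each point the mean of 2 replicates of YP-mESC, OP-mESC, mESC shCtrl or EB shCtrl, with RefSeq starts as dashed lines. Stretches at the starts lie near 0 in all 4 conditions, while stretches inside Tet1 such as chr10:62342001-62343000 run from 7.49% in OP-mESC to 78.8% in EB shCtrl.

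Tet1, the TET enzyme most abundant in mESCs, showed the widest range among the promoters and bodies. Its promoter windows, set by starts of GENCODE transcripts, cover mostly intragenic DNA, and the RefSeq start itself falls in the body. The mean promoter level over all CpGs read was 27.8% ± 5.59 (SD, n = 2) in YP-mESCs, 4.71% ± 1.07 in OP-mESCs, 10.96% ± 0.772 in OP-S33Y #1, with OP-S33Y #2 at 11.5% ± 5.17. It was 24.7% ± 6.64 in mESC shCtrl, 20.3% ± 3.04 in mESC shβcat #1, 65.2% ± 1.36 in EB shCtrl and 68.2% ± 0.908 in EB shβcat #1 (n = 2 each). The 4 EB libraries lay above every mESC library, and both OP-mESC libraries lay below all others.

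The coding exon stretch of Tet1 at chr10:62342001-62343000 is part of that promoter, and here too the EB libraries were the highest and the OP-mESC libraries the lowest. Its replicates were at 36.5 and 36.0% in YP-mESCs, 9.46 and 5.52% in OP-mESCs, 12.9 and 13.9% in OP-S33Y #1, with OP-S33Y #2 at 22.4 and 12.4%. With hairpins they were at 22.1 and 17.6% in mESC shCtrl, 12.7 and 11.4% in mESC shβcat #1, 78.1 and 79.4% in EB shCtrl and 86.1 and 84.6% in EB shβcat #1. Every EB library lay above every mESC library, and among mESCs the YP-mESC libraries were the highest. The Tet1 intron stretch at chr10:62329001-62330000 was at 25.3 and 24.6% in YP-mESCs, 0.775 and 1.35% in OP-mESCs, and 64.3 to 69.5% in the 4 EB libraries. Here mESC shCtrl (25.1 and 10.2%) and mESC shβcat #1 (13.6 and 29.8%) overlapped each other and YP-mESCs. The coding stretch at chr10:62295001-62296000 was at 48.8 and 30.9% in YP-mESCs, 11.1 and 13.7% in OP-mESCs, 41.5 and 41.3% in OP-S33Y #1, with OP-S33Y #2 at 39.8 and 19.9%. In that stretch OP-S33Y #1 overlapped YP-mESCs and lay above OP-mESCs.

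Tet2, a TET enzyme without a CXXC domain of its own, was nearly unmethylated at its start and partly methylated inside. The promoter was at 0 to 0.866% in the 8 libraries without a hairpin and at 2.51 to 3.39% in the 8 with one. The latter read 62 to 69 CpGs there and the former 10 to 34, and over the 32 CpGs common to YP-mESCs and mESC shCtrl the means were 0.114% and 1.62%. The coding exon stretch at chr3:133149001-133150000 was at 54.9 and 53.1% in YP-mESCs, 26.6% in the 1 OP-mESC library that read it, and 31.4 to 49.4% in the 4 S33Y libraries. It was at 27.2 to 38.3% in the 4 mESC libraries with a hairpin and at 82.3 to 89.0% in the 4 EB libraries, above all others. An intron stretch at chr3:133196001-133197000 was at 0 to 5.69% in the 12 mESC libraries and at 18.8 to 36.9% in the 4 EB libraries.

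Tet3, the TET enzyme known for oxidising the paternal genome of the zygote, was methylated along its body. The body was at 85.1% ± 3.01 in YP-mESCs, 74.4% ± 0.052 in OP-mESCs, 85.9% ± 0.565 in OP-S33Y #1, with OP-S33Y #2 at 81.4% ± 0.373 (SD, n = 2 each). It was at 86.6 to 88.7% in the 4 mESC libraries with a hairpin and at 89.8 to 92.8% in the EBs. The OP-mESC libraries were the lowest and the EB libraries the highest. The OP-mESC body levels rest on 49 CpGs in replicate 1 and 15 in replicate 2, so their SD does not measure agreement. Over the 15 CpGs common to OP-mESCs and YP-mESCs, the OP-mESC replicates were at 79.6 and 74.4%. The promoter was at 0 to 1.25% in the 8 libraries without a hairpin and at 7.14 to 13.1% in the 8 with one, but the latter read more CpGs there, and over the 37 CpGs common to YP-mESCs and mESC shCtrl the means were 0.799% and 1.75% (limma, adjusted p = 0.118). The coding stretch at chr6:83354001-83355000 held 90.01 to 97.9% in all 16 libraries.

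Tdg, the glycosylase, had no body CpG with a value. Its start stretch (chr10:82092001-82093000) was at 0 to 1.26% in 15 libraries. A second stretch (chr10:82107001-82108000), next to an internal annotated start, was read in 6 libraries and was at 60.3 to 92.0% in them, and the promoter mean of a library depends on whether it was read.

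Kdm2b had the most starts and a mixed pattern. Its stretch at chr5:123465001-123466000, at the most upstream GENCODE start, was at 0.0962 to 0.625% in the libraries without a hairpin and at 1.73 to 2.996% in those with one. The stretch at chr5:123351001-123352000 was at 30.0 and 29.2% in YP-mESCs, 10.03 and 13.1% in OP-mESCs, and 52.2 to 72.5% in EBs. The stretch at chr5:123338001-123339000 was at 47.9 to 74.6% in the 8 libraries without a hairpin and at 80.0 to 94.7% in the 8 with one. In that stretch the 2 sets did not overlap. The libraries without a hairpin came from both young-passage and old-passage cells. The hairpin vector and the library set cannot be told apart. At chr5:123382001-123383000 all 16 libraries lay between 82.7 and 95.1%.

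**Figure D2:**
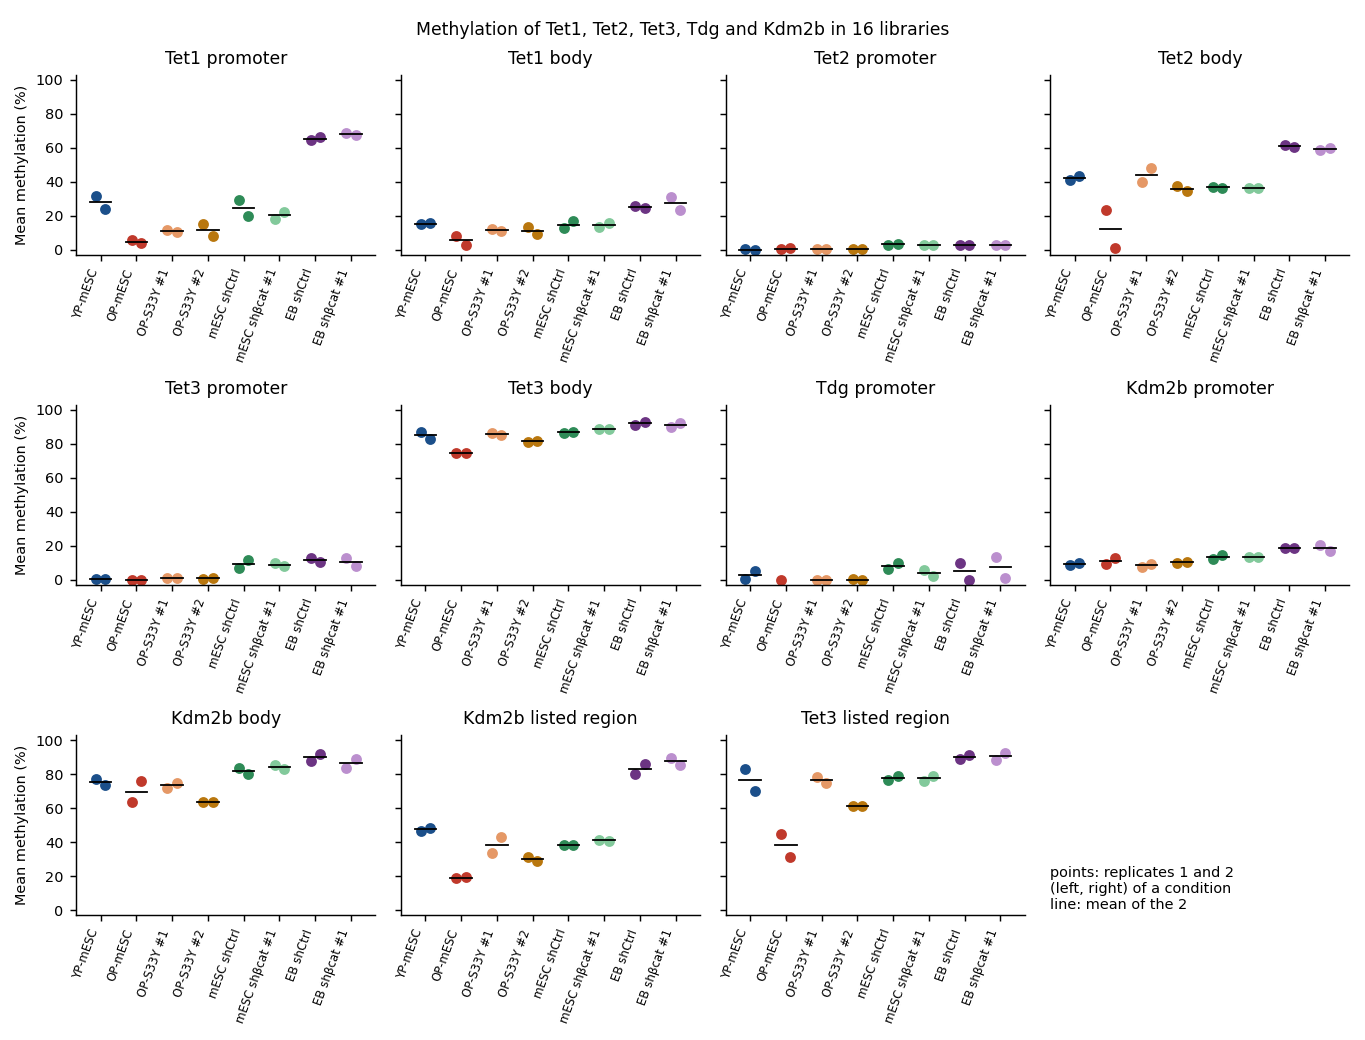
Methylation (%, y axis) of each promoter, body and listed region in the 8 conditions (x axis), with replicates 1 and 2 as points from left to right and their mean as a line. The Tet1 promoter runs from 4.71% in OP-mESC to 68.2% in EB shβcat #1, while the Tet2 promoter stays at or below 3.39% in every library.

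A region of Kdm2b (chr5:123330335-123332574) and one of Tet3 (chr6:83318001-83318807) were listed by the study from OP-mESCs and YP-mESCs, so their values in comparisons with either condition are a description without a test. The CpGs of the Kdm2b region are also part of the Kdm2b promoter, and those of the Tet3 region part of the Tet3 body. The Kdm2b region was at 46.8 and 48.2% in YP-mESCs, 18.9 and 19.4% in OP-mESCs, 33.8 and 42.9% in OP-S33Y #1, with OP-S33Y #2 at 31.0 and 28.7%. It was at 38.3 to 41.3% in the 4 mESC libraries with a hairpin and at 79.8 to 89.5% in the 4 EB libraries. Both S33Y clones lay between OP-mESCs and YP-mESCs. The Tet3 region was at 83.2 and 70.3% in YP-mESCs, 45.0 and 31.1% in OP-mESCs (the last from 2 CpGs and 25 reads), 78.5 and 74.5% in OP-S33Y #1, with OP-S33Y #2 at 61.0 and 61.1%. It was at 76.2 to 78.8% in the 4 mESC libraries with a hairpin and at 88.5 to 92.4% in the EBs. In this region OP-S33Y #1 overlapped YP-mESCs and OP-S33Y #2 did not.

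**Figure D3:**
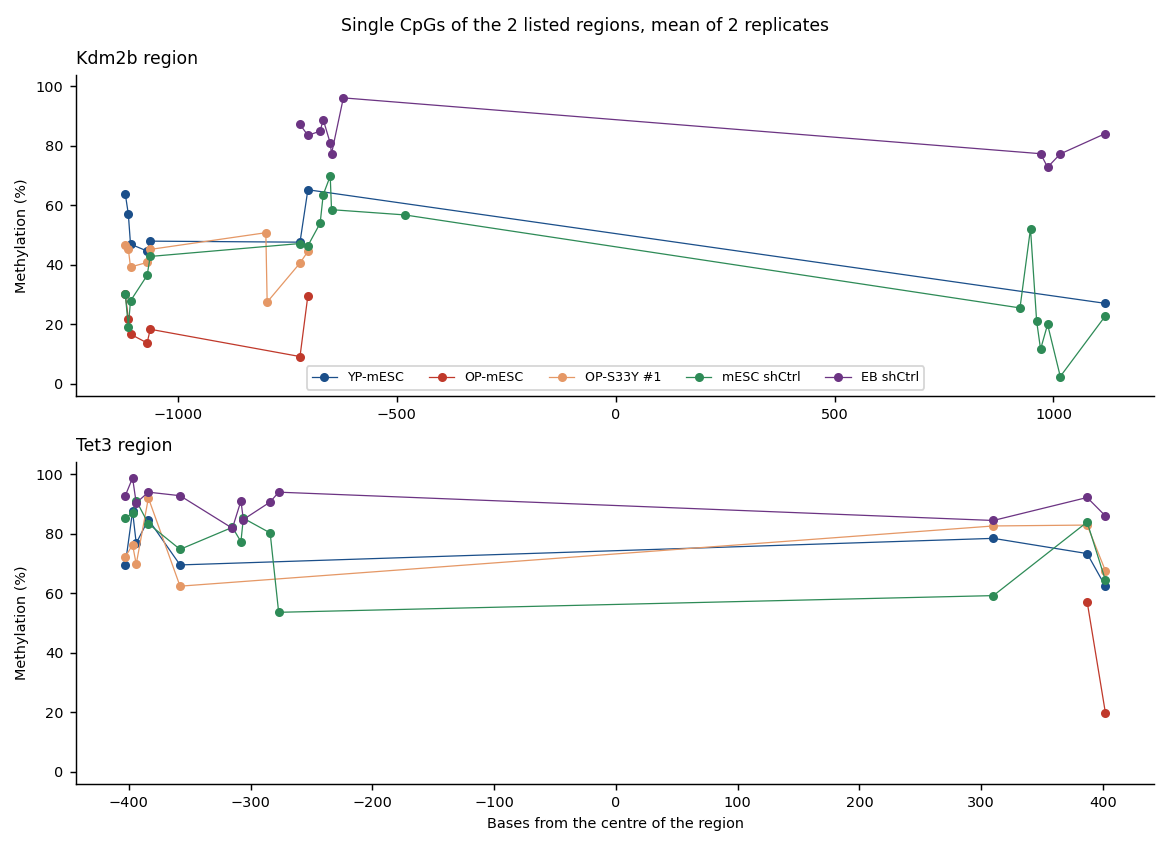
Methylation (%, y axis) of single CpGs of the listed Kdm2b and Tet3 regions against the distance from the region's centre (bases, x axis), each point the mean of 2 replicates, for YP-mESC, OP-mESC, OP-S33Y #1, mESC shCtrl and EB shCtrl. EB shCtrl lies at the top and OP-mESC at the bottom, with region means of 82.7% and 19.1% in Kdm2b.

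The first comparison asked what prolonged culture did, and the Tet1 promoter and Tet2 body were the promoters and bodies of members that passed the test in OP-mESCs. Over the 7 CpGs read in all 4 libraries, the Tet1 promoter was at 31.3 and 31.1% in YP-mESCs and at 6.20 and 3.84% in OP-mESCs, a difference of -26.2 points (limma on M values, -2.91 with an SE of 0.24, adjusted p = 0.0191). The Tet2 body, over 3 intron CpGs, was at 6.01% and 0.867%, a difference of -5.14 points (limma, adjusted p = 0.0191). These 2 of 8 promoters and bodies were lower and 0 higher, where 9.62% and 0.258% of all 22870 promoters and bodies were lower and higher, and the median over all of them was -1.44 points. Of the 8, 7 had an unadjusted p under 0.05, against 31.4% of all. The Tet3 body, among the 7, and the Kdm2b promoter, the 1 of the 8 outside them, hold CpGs of the listed regions. Their part in this count is therefore no test. In 1 of the 7, the Tet2 promoter, OP-mESCs were higher (by 0.667 points). The Kdm2b body differed by -8.29 points and did not pass (limma, adjusted p = 0.111), and the Tet3 body, which holds CpGs of a listed region and is given as a description, differed by -8.71 points. At 20 reads the Tet2 body was not tested and the Tet2 promoter was called higher, at 1.04% over 5 CpGs against 0 (limma, adjusted p = 0.0448). Neither the Tet1 promoter nor the Tet2 body was called with any 1 of the 4 libraries left out. Such a fit has 1 library in a group and little power for any gene. Nor was either called with the replicate block (limma, adjusted p = 0.0781 for the Tet1 promoter), where 0 of all 22870 promoters and bodies were called. The Tet2 body rested on the few CpGs of OP-mESC replicate 2, and its difference was -12.0 points without that library (limma, adjusted p = 0.146) and -30.1 points over every CpG of each library (0.303). Tested as separate windows and body stretches, which was chosen after seeing the data, 6 of 16 were lower, against 8.88% lower and 0.243% higher among all, and 2 of them hold the listed regions described above and count as description. Of the others, the Tet1 window at chr10:62326052-62330052 was at 24.9% and 1.06% (limma, adjusted p = 0.0210) and the Tet1 window at chr10:62340762-62344762 at 35.9% and 7.99% (0.0255).

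A single CpG was called where it differed by over 25 points and its adjusted p, from a binomial model with overdispersion, was under 0.05. Outside the listed regions, 4 of 185 member CpGs (2.16%) were lower in OP-mESCs and 0 higher, against 2.47% and 0.076% of all CpGs tested. The share of members was close to that of all CpGs. The Tet1 CpG at position 62295687 fell from 43.8% to 5.85% (adjusted p = 1.24e-08), that at 62329056 from 32.2% to 0.676% (1.61e-05) and that at 62342565 from 46.1% to 4.76% (0.00338). The fourth was a Kdm2b intron CpG at 123387861, which fell from 52.5% to 22.9% (0.00397).

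The S33Y clones were compared with YP-mESCs and with OP-mESCs, which are shared between these comparisons. OP-S33Y #1 against YP-mESCs gave 0 of 9 promoters and bodies by limma, and 0% of all 27166 were lower or higher. In that comparison 1 of the 9 had an unadjusted p under 0.05 (17.2% of all did), the Tet1 promoter, at 10.8% and 31.2%, a difference of -20.4 points (limma, adjusted p = 0.0714). Where at least 5 CpGs were required, the Tet1 promoter was called lower (limma, adjusted p = 0.0238), with 200 of all 21265 lower and 84 higher. No single CpG of 342 was called (0.152% lower and 0.164% higher among all CpGs). At an unadjusted p under 0.05 stood 19 of the 342 member CpGs and 42570 of all 611663, and Fisher's exact test on the summed reads called 0 members.

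OP-S33Y #2 against YP-mESCs gave 1 of 9 lower, with 2.01% of all promoters and bodies lower and 0.259% higher. It was the Tet1 promoter, which fell from 27.7% to 10.04%, a difference of -17.7 points (limma, -1.70 with an SE of 0.14 on the M scale, adjusted p = 0.0383). The Tet1 promoter was not called with any 1 library left out, which leaves 1 library in a group. Nor was it called with the replicate block (limma, adjusted p = 0.0958), where 0 of all 27411 promoters and bodies were called. Of 347 CpGs, 3 were lower (0.865%), against 0.743% lower and 0.121% higher among all CpGs, and they were Tet1 62329056 (32.2% to 6.80%), Kdm2b 123380625 (49.2% to 20.6%) and Kdm2b 123387861 (52.5% to 25%). The count was 0 without OP-S33Y #2 replicate 2 and 1 without either YP-mESC replicate.

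Against OP-mESCs, OP-S33Y #1 had 0 of 8 promoters and bodies called by limma and 4 with an unadjusted p under 0.05 (34.5% of all had one), while 0.225% of all were lower and 8.11% higher. The Tet1 promoter was at 11.1% against 5.08% (limma, adjusted p = 0.0643). The Tet3 body, 1 of those 4, was at 87.9% against 77.0%, which is given as a description, since 2 of its 15 CpGs are of the listed region and differed by 36.7 points. With limma on the percentages the Tet1 promoter was called, and where at least 5 CpGs were required the Tet1 promoter, the Tet1 body and the Tet3 body were. Single CpGs were higher in 2 of 190 cases (1.05%), against 0.0614% lower and 2.43% higher among all. Both lay in the Tet1 coding stretch shown above, at 62295687 (5.85% to 41.6%, adjusted p = 9.38e-07) and 62295709 (6.72% to 33.7%, 0.00312), and 1 was called without OP-S33Y #1 replicate 2 or OP-mESC replicate 1. OP-S33Y #2 against OP-mESCs had 0 of 8 called by limma, with 3 at an unadjusted p under 0.05 (24.1% of all) and 0.038% lower and 0.228% higher over all promoters and bodies. There 0 of 192 CpGs were called (0.0774% and 0.684% among all). At an unadjusted p under 0.05 stood 10 of the 192 member CpGs and 33656 of all 382193, and Fisher's exact test on the summed reads called 0 members. Without OP-S33Y #2 replicate 2 the count was 2.

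No promoter, body or listed region passed the test of β-catenin silencing with its 1 hairpin construct. In mESCs 0 of 9 were called by limma, 0 had an unadjusted p under 0.05, and 0 of all 31393 were lower or higher (0%), while 3960 of all had an unadjusted p under 0.05. The Tet1 promoter was at 22.3 and 24.2% against 30.7 and 20.04%, which overlap. The Kdm2b region was at 38.4% against 36.9% (limma, adjusted p = 0.651) and the Tet3 region at 77.5% in both (limma, adjusted p = 1). A single CpG of 503 was lower, Kdm2b 123438256, where 0.0281% of all were lower and 0.0825% higher. At that CpG the mESC shCtrl libraries were at 38.5% (26 reads) and 100% (12 reads), and mESC shβcat #1 was at 0. In EBs 0 of 9 were called by limma, 0 had an unadjusted p under 0.05, against 5510 of all 30051 (0% called), and 0 of 467 CpGs were called (0.0233% lower and 0.065% higher among all). At an unadjusted p under 0.05 stood 19 of the 467 member CpGs and 65315 of all 824284, and Fisher's exact test on the summed reads called 0 members. The count was 2 without EB shβcat #1 replicate 1 and 1 without EB shCtrl replicate 1. The Kdm2b region was at 87.2% against 85.8% and the Tet3 region at 90.5% against 90.2%. The difference between silencing in EBs and in mESCs, an interaction in limma, passed at 0 of 9 and at 0 of all 29654 (0%), with 0 of the 9 and 5704 of all at an unadjusted p under 0.05.

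From mESCs to EBs, members of the TET family and Kdm2b rose. EBs are a mix of cells, so more methylated cells and a higher level in each cell cannot be told apart. In shCtrl cells 5 of 9 promoters and bodies were higher by limma and 0 lower, where 30.4% of all 30637 were higher and 0.483% lower and the median over all was 2.11 points. The Tet1 promoter rose from 25.6% to 73.7%, by 48.1 points (2.97 with an SE of 0.26 on the M scale, limma adjusted p = 0.00572). The Tet2 body rose from 24.5% to 57.1% (limma, 0.00321). The Tet1 body rose from 15.4% to 23.2% (0.00765), the Kdm2b promoter from 12.03% to 17.1% (0.012) and the Tet3 promoter from 7.91% to 10.55% (0.0385). The Tet2 promoter was at 3.52% and 3.38%, the Tdg promoter at 0.258% and 0, and the Tet3 and Kdm2b bodies did not pass (0.0697 and 0.0512). The listed regions rose in these cells too, Kdm2b from 39.7% to 81.5% (limma, adjusted p = 0.00602) and Tet3 from 77.5% to 90.2% (0.0148).

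Some of these calls depended on 1 library. The Tet2 body was called whichever library was left out (limma, adjusted p = 0.0337 to 0.0399). The Tet1 promoter was lost without EB shCtrl replicate 2 (0.0505), the Kdm2b region without mESC shCtrl replicate 2 (0.0586), and the Tet1 body without EB shCtrl replicate 1 (0.0571) or either mESC shCtrl replicate (0.0502 and 0.0599). The Kdm2b promoter (0.0566 to 0.0767), the Tet3 promoter (0.0961 to 0.171) and the Tet3 region (0.0525 to 0.098) were lost whichever library was left out, and at 20 reads the Tet3 promoter differed by 0.429 points (0.667), while the Kdm2b body was called higher (7.05 points, 0.0327) and the Tdg promoter lower (0.73% to 0 over 6 CpGs, 0.0375).

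In shβcat #1 cells 4 of 9 were higher and 0 lower, with 29.6% higher and 7.6% lower among all promoters and bodies. The Tet1 promoter rose from 20.2% to 65.1% (limma, adjusted p = 0.00196), the Tet2 body from 33.3% to 58.2% (0.00292), the Tet1 body from 14.4% to 22.7% (0.00542) and the Kdm2b promoter from 12.1% to 16.8% (0.0105). The Kdm2b region rose from 37.4% to 88.5% (0.00403) and the Tet3 region from 77.5% to 90.5% (0.0242). The Kdm2b promoter was lost without EB shβcat #1 replicate 1 (0.0548) or mESC shβcat #1 replicate 1 or 2 (0.0627 and 0.0672), and the Tet3 region in 3 of 4 cases (up to 0.118). The other calls held.

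At single CpGs, 44 of 473 members were higher in EB shCtrl (9.3%) and 1 lower, against 6.34% and 0.0751% of all CpGs tested. Tet1 had 15 of 58, Tet2 8 of 72, Tet3 2 of 96, Tdg 0 of 17 and Kdm2b 19 of 230. The 1 lower was Kdm2b 123438256 again. In shβcat #1 cells 43 of 490 were higher (8.78%) and 0 lower, against 6.25% and 0.348% of all, with Tet1 at 17 of 59, Tet2 at 7 of 76, Tet3 at 4 of 98 and Kdm2b at 15 of 235. Of the Tet1 promoter CpGs 10 of 12 and 10 of 13 were called, and of the Tet2 promoter CpGs 0 of 57 and 0 of 58. Tested as separate windows and body stretches, 12 of 24 and 10 of 22 were higher, against 27.9% and 27.5% of all (0.482% and 8.15% were lower), among them the Tet1 window at chr10:62340762-62344762, which rose from 19.0% to 79.9% in shCtrl cells (limma, adjusted p = 0.0036).

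**Figure D4:**
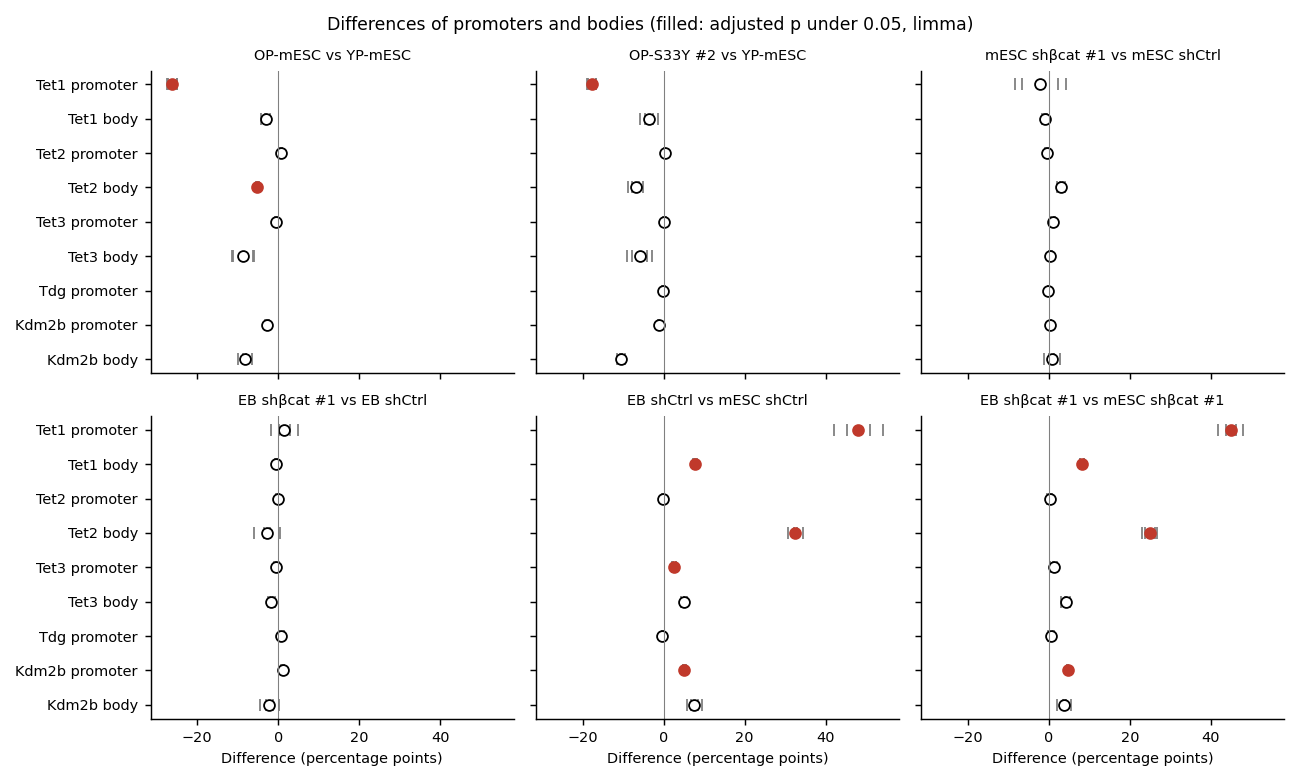
Difference in methylation (percentage points, x axis) of the 9 promoters and bodies (y axis) in 6 comparisons, circles for the difference of means (filled where the limma adjusted p is under 0.05) and grey ticks for the 4 differences between single replicates. The Tet1 promoter lies at -26.2 points in OP-mESC against YP-mESC and at 48.1 points in EB shCtrl against mESC shCtrl.

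The mESC shCtrl cells, made from young-passage cells, were also compared with YP-mESCs. Their passage number is not in the labels. The hairpin vector, the exact passage and the library set cannot be told apart in this comparison. By limma 1 of 9 was higher and 1 lower, where 25.6% and 2.63% of all 27673 were higher and lower and the median over all was 1.87 points. The Tet2 promoter was at 1.62% against 0.114% (adjusted p = 0.0231) and the Tet1 promoter fell from 30.0% to 17.1% (limma, 0.0405). Neither was called by limma with any 1 library left out, a fit with 1 library in a group and little power for any gene. At 20 reads the Tet2 promoter differed by 0.106 points (limma, adjusted p = 0.793). Of 366 CpGs outside the listed regions, 10 were higher (2.73%) and 2 lower, against 2.58% and 0.358% of all, and without YP-mESC replicate 1 the count was 7. The 2 lower lay in the Tet2 coding exon shown above, 133149153 (48.1% to 12.9%) and 133149185 (65.5% to 22.4%). Of the 10 higher, 9 lay in Kdm2b, among them 123350389 (0 to 29.2%) and 123350437 (0 to 25.6%) at the internal start and 123338716 (52.7% to 85.6%).

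Other genes of these pathways were read from 2 lists. Of 26 genes of oxidation, deamination and base excision repair, 18 of 34 promoters and bodies were higher in EB shCtrl than in mESC shCtrl (52.9%), against 30.4% of all. Among them the promoter of Apobec2, of the cytidine deaminase family, rose from 17.4% to 64.7% (limma, adjusted p = 0.0133) and that of Dppa3, which protects the maternal genome from oxidation, from 35.6% to 69.3% (0.00355). The body of Idh2, which makes the TET cofactor 2-oxoglutarate, rose from 28.9% to 68.3% (0.00822). Of 10 genes of the KDM2B complex and its paralog, 5 of 15 were higher (33.3%), among them the body of Rybp, from 47.2% to 85.3% (0.00781). In OP-mESCs against YP-mESCs 4 of 28 of the first list were lower (14.3%) and 0 of 14 of the second, against 9.62% of all. In OP-S33Y #1 against OP-mESCs 3 of 29 (10.3%) and 0 of 14 were higher, against 8.11% of all, and for both silencing comparisons 0 of either list was called by limma.

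The Tet1 promoter, with the widest range of the promoters, was compared over the 8 condition means with promoters and bodies of other genes that had at least 5 CpGs in all 16 libraries and a range at least as wide. The 3 most alike of 68 candidates by Pearson's r were the bodies of Spry4, Zfp574 and Gm16257, each at 0.995. The median of the 68 was 0.971, and 49 were above 0.9, so that a high r was common among features of this range, all of them from the same 16 libraries.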

How the data were processed

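RRBS of 16 libraries, 2 for each of 8 conditions, was analysed, with groups and replicate numbers taken from the labels. The labels name both the Ultralow Methyl-Seq and the RRBS Methyl-Seq kit of NuGEN for all libraries, and the submitters' processing notes name CASAVA 1.8.2, Trim Galore 0.2.8, Bismark 0.7.9 and mm9. Each deposited file lists, for the cytosines of CpGs, a read count (coverage) and a percent methylated, which the authors neither normalized nor pooled over replicates. All listed cytosines have at least 10 reads. Neither the restriction enzyme nor how duplicate reads were handled is given in the sources used here, and duplicates would make reads less independent than a count model takes them to be.

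Coverage times percent gave the methylated reads, and both strands of a CpG were summed, with at least 10 reads required. Single CpGs were compared by a likelihood ratio test in a binomial model with an overdispersion shared by all CpGs, with Benjamini-Hochberg adjustment over all CpGs tested. Promoters (within 2 kb of a GENCODE vM1 start) and bodies of all genes, with at least 2 CpGs common to the libraries compared, were compared with limma on M values, log2((p + 0.01)/(1 - p + 0.01)) of the mean fraction p, with adjustment over all promoters and bodies. M differences are therefore smaller near 0 and 100% than without the offset of 0.01. The smallest p that an exact permutation test could give for 2 libraries against 2 is 0.33, so none was run. Both tests were tested on simulated data.

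The members and gene lists were chosen with earlier results of these data known. The text names all 5 members, their called CpGs, the 1 kb stretches with a wide spread of condition means, at most 3 genes a pathway list by size of difference, and the 3 features most like the member with the widest range. CpGs of the 2 listed regions were left out of single CpG counts wherever OP-mESCs or YP-mESCs were compared. RefSeq promoters (GRCm38.p6 table) were placed in mm9 by exact match, and all sequences were read from mm9. The alternatives were at least 20 reads or 5 CpGs, windows of 1 kb, separate strands, every CpG of each library, limma on percentages, read-weighted levels, Fisher's exact test, a replicate block, each library left out, and each stretch apart. The work used Python 3.11.15, numpy 2.4.6, pandas 2.3.3, scipy 1.17.1, numba 0.67.0, matplotlib 3.10.9, R 4.3.3, limma 3.58.1 and the data.table package (1.17.8).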

Additional observations from a re-analysis of the deposited data

How the results depend on the processing

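Of 100 counts of called members under other settings 73 stayed within 1.5 times the reported count and 27 did not, and with a library left out 55 did and 25 did not. A count of 0 where 0 was reported was taken as staying. Many of the 73 and of the 55 are such counts, as in the silencing comparisons, where 0 of all promoters and bodies were called. These numbers therefore do not measure how far called members held. No called promoter, body or listed region reversed under a setting that could test it. Differences that were not called could turn, as for the Kdm2b promoter, at 14.5% in YP-mESCs and 11.7% in OP-mESCs over common CpGs but at 9.57% and 11.2% over every CpG of each library.

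For single CpGs, a minimum of 20 reads left fewer CpGs tested. It gave 2 of 115 in place of 4 of 185 for OP-mESCs against YP-mESCs and 0 of 283 in place of 1 of 503 for silencing in mESCs. For EBs against mESCs it gave 20 of 218 in place of 45 of 473 (shCtrl) and 28 of 312 in place of 43 of 490 (shβcat #1). For mESC shCtrl against YP-mESCs it gave 4 of 190 in place of 12 of 366. Over all CpGs, 31516 of 447870 were higher in EB shCtrl at 20 reads, in place of 54447 of 858530. Separate strands gave 7, 0 and 0 for OP-mESCs against YP-mESCs, OP-S33Y #2 against YP-mESCs (reported 3) and silencing in mESCs. With a library left out the counts were 4 to 6 for OP-mESCs against YP-mESCs, 0 to 2 for OP-S33Y #2 against YP-mESCs, 1 to 2 and 0 to 2 for OP-S33Y #1 and #2 against OP-mESCs, 0 to 2 for silencing in EBs and 7 to 10 for mESC shCtrl against YP-mESCs.

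For promoters and bodies, every CpG of each library gave 0, 0 and 2 for OP-mESCs and OP-S33Y #2 against YP-mESCs and EB shCtrl against mESC shCtrl (reported 2, 1 and 5). In both comparisons with YP-mESCs this setting called 0 of all promoters and bodies. At least 5 CpGs gave 1, 2, 3 and 4 for OP-S33Y #1 and #2 against YP-mESCs, OP-S33Y #1 against OP-mESCs and mESC shCtrl against YP-mESCs, limma on percentages gave 1 for the third of these, and 20 reads gave 1 for the last. Each stretch apart, an alternative chosen after seeing the data, tests more features and gave 6, 2, 3, 12, 10 and 6 for OP-mESCs and OP-S33Y #2 against YP-mESCs, OP-S33Y #1 against OP-mESCs, EBs against mESCs (shCtrl, then shβcat #1) and mESC shCtrl against YP-mESCs. Of the first 6 and of the 3, 2 each hold a listed region and are no test, nor is the Tet3 body, 1 of the 3 called with at least 5 CpGs. With a library left out, the counts were 0 in every comparison with YP-mESCs, 2 for EB shCtrl against mESC shCtrl and 3 to 4 for the shβcat #1 cells.

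Replicate numbers did not pair the libraries, with correlations of their deviations from -0.0165 to 0.0308. The replicate block gave 0 CpGs for OP-S33Y #2 against YP-mESCs, and 0, 0 and 1 promoters and bodies for OP-mESCs, OP-S33Y #2 and mESC shCtrl against YP-mESCs. For OP-mESCs and OP-S33Y #2 it called 0 of all promoters and bodies.

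Restricting levels to CpGs read in all 16 libraries moved 53 of 80 by more than the replicate SD, by up to 42.6 points, since other CpGs were then averaged. At 20 reads 34 of 86 moved, by up to 9.09 points. With 10 reads, a CpG's level can take only steps of 10 points.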

Other observations

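The 8 libraries with a hairpin shared a set of CpGs that were read as partly methylated. This was looked for after the values were seen. Among CpGs read in all 8 libraries with a hairpin and in at least 4 of the 8 others, where none of the others was above 5%, 5 of 237 member CpGs (2.11%) were above 10% in every library with a hairpin, against 9743 of 327499 of all CpGs (2.97%). The members' share was not above that of all CpGs. The CpG at position 133207616, near the Tet2 start, was at 13.6 to 27.9% in the libraries with a hairpin and at 0 in the others that read it. The other four lay in Kdm2b. At its internal start, 123350389 was at 17.2 to 32.3% against at most 3.33%, and 123350437 was at 19.0 to 29.8% against 0. At its upstream end, 123465274 was at 13.9 to 40.7% against at most 2.27%, and 123465351 at 10.53 to 23.1% against at most 3.23%. The means of the 1 kb stretches that hold these CpGs stayed at or below 3.69% in all 16 libraries. The libraries with a hairpin include both the control and the β-catenin construct and both mESCs and EBs, and the hairpin vector and the set of libraries cannot be told apart.

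At Kdm2b 123438256, in an intron near the upstream RefSeq start, mESC shCtrl was at 38.5% and 100% and EB shβcat #1 replicate 2 at 37.8% (45 reads), while the other libraries that read it, with 11 to 27 reads each, were at 0. The cause was not tested.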
